A study of Homo sapiens with 24 samples.

Results

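The genes described are p53 targets of metabolism, redox balance and mitochondria: TP53I3, FDXR, TIGAR, GLS2, SCO2, SPATA18, TP53INP1 and AEN. They were chosen by name from a table of 63299 annotated genes, and 7 of the 8 symbols were matched by Ensembl identifier and were among the 20240 genes that passed the filter on low counts. SCO2, which encodes a copper chaperone of cytochrome c oxidase, was not matched and was not analysed here. Whole transcriptome sequencing was carried out on A2780 cells, a platinum-sensitive human ovarian cancer line, and on A2780cis, its isogenic platinum-resistant counterpart. Cells of each line received standard medium or the drug 5-FdU-ECyd at 1 μM and were harvested 6 h or 12 h later, which gives 8 groups of 3 libraries. 5-FdU-ECyd is a duplex-prodrug in which the antimetabolites 2'-deoxy-5-fluorouridine and 3'-C-ethynylcytidine are covalently linked. The study describes the latter as an inhibitor of RNA polymerase. A2780cis cells had received cisplatin for a passage at intervals to maintain resistance and were seeded at another density, so that these differences cannot be told apart from the line. Each resistance status is represented by 1 line.

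p53 is a transcription factor that is stabilised after DNA damage and binds response elements near its target genes. Besides the well known genes of cell cycle arrest and apoptosis, its targets include enzymes that set the redox state, the use of glutamine and glycolytic intermediates, and the turnover of mitochondria. TP53I3 is a quinone oxidoreductase linked to reactive oxygen species, and FDXR passes electrons from NADPH to the mitochondrial ferredoxins. TIGAR is a fructose bisphosphatase that diverts glucose carbon towards NADPH production, and GLS2 is the liver-type mitochondrial glutaminase. SPATA18 takes part in the removal of damaged mitochondrial proteins, TP53INP1 in stress signalling and autophagy, and AEN is a nuclease that acts in apoptosis.

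The binding sequences by which p53 is known to recognise its targets can be looked for in the RefSeq promoter windows (GRCh38.p14, 250 bases before to 50 bases after the start), which were given for 6 of the members in 7 windows. The p53 consensus decamer, which reads the same on both strands, was present without mismatch in the window of AEN and in a window of FDXR. It was present in 6.63% of all 35116 windows. Adjoining decamers (20 bases, at most 3 mismatches, with the C and the G of each core kept) were found for AEN, FDXR and GLS2 and in 1.12% of all windows. These 3 are shown because they carry a match beside genes measured here, and capitals mark the 20 bases.
AEN, chr15:88621301-88621330, plus strand, 34 to 15 bases before the start, 2 mismatches: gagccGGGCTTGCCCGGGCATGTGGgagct
FDXR, chr17:74872991-74873020, minus strand, 21 to 2 bases before the start, 3 mismatches: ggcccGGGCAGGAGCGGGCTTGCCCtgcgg
GLS2, chr12:56488112-56488137, minus strand, 29 to 48 bases after the start, 2 mismatches: gccggAGGCTTGCTGGGGCATGCGCt
The matching decamer without mismatch had the same letters, GGGCTTGCCC, in AEN and FDXR. A match is a description of letters and no measured binding, and the windows of TP53I3, SPATA18 and TIGAR held none. The other window of FDXR (chr17:74868704-74869003) held none either.

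The libraries held between 11077368 and 21901406 counted reads. Expression is given as CPM, the counts scaled to a common library size after TMM normalization, and a difference between groups as log2 fold change (log2 FC) with its standard error (SE). Adjusted p-values are two-sided, from the quasi-likelihood test of edgeR, adjusted over all genes tested by the method of Benjamini and Hochberg, and a gene was called at an adjusted p of at most 0.05. The study calls its replicates biological, and the labels do not say whether they were separate cultures, so that p-values measure the spread between these libraries. In bulk RNA, fewer expressing cells and less RNA per cell cannot be told apart. CPM are shares of the counted reads, so that a change in total RNA per cell was not measured. Of 8 markers of ovarian carcinoma and epithelium 3 passed the filter (EPCAM, KRT8 and KRT18) and 4 were at or below 3 counts in every library, with a summed level between 2.09 and 35.8 CPM. Leukocyte markers reached at most 0.360 CPM and endothelial markers 0.0853 CPM in sum, whereas the 4 fibroblast markers summed to 3.29 to 241 CPM. The sum of COL1A1, COL1A2, DCN and PDGFRA lay between 225 and 241 CPM in the untreated and 116 and 144 CPM in the treated A2780 libraries, and between 4.41 and 5.48 CPM and 3.29 and 4.80 CPM in those of A2780cis. All 4 were called lower in untreated A2780cis than in untreated A2780 cells at both times. PDGFRA, a growth factor receptor, went from 162 ± 7.24 CPM (SD, n = 3) to 45.0 ± 2.48 CPM with the drug in A2780 at 12 h. COL1A1 went the other way, from 8.38 ± 1.32 to 14.7 ± 1.63 CPM. Of the 4 markers, 1 was called higher and 1 lower with the drug in A2780 at 12 h. These markers thus differ between the lines and do not move together with the drug. Their part in the member results was not tested.

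**Figure D1:**
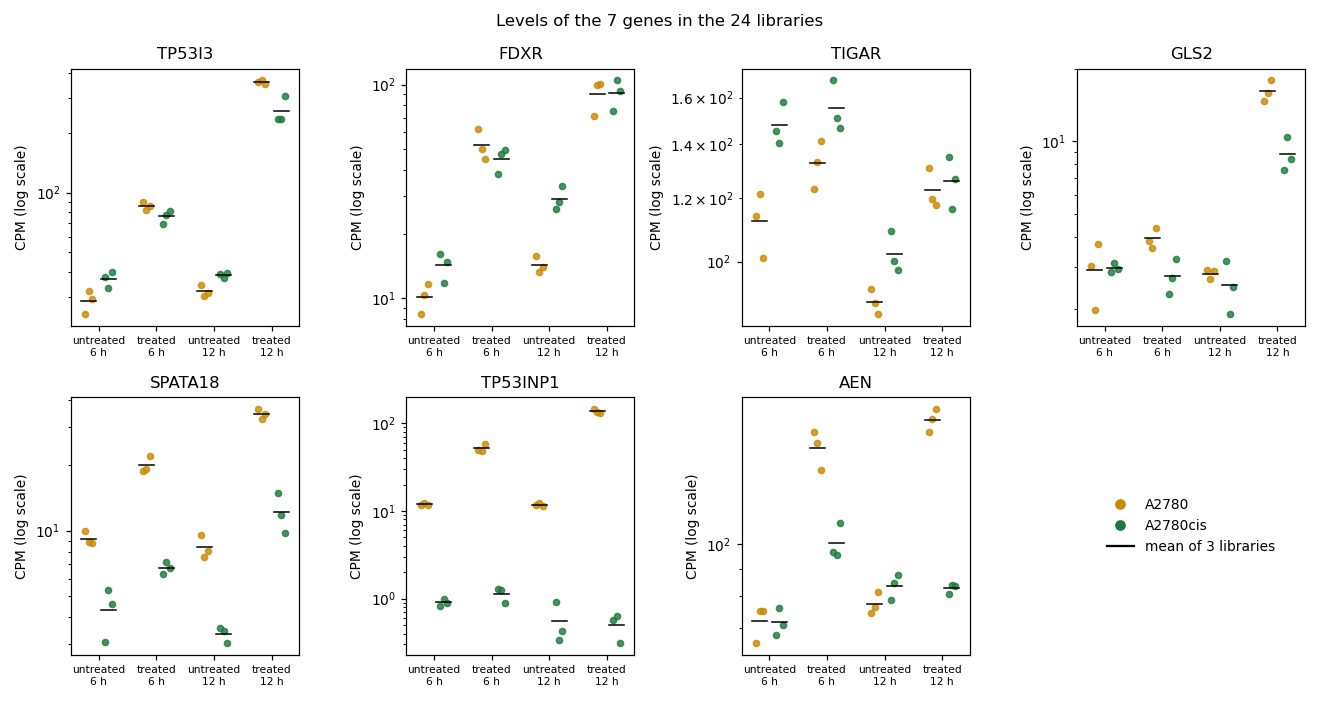
CPM (log axis) of the 7 genes in the 24 libraries, by treatment and time, with A2780 and A2780cis in different colours, points for libraries and bars for the mean of 3. TP53INP1 in A2780cis lay between 0.312 and 1.28 CPM in all 12 libraries. GLS2, whose exons overlap those of SPRYD4, was called higher at 12 h and not at 6 h.

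Per kilobase of exon (FPKM scale, GENCODE release 44), the members spanned a wide range in untreated cells. In untreated A2780 cells of 12 h, TP53I3 stood at 13.8 ± 0.923 FPKM (SD, n = 3) and AEN at 12.9 ± 0.603, and the libraries of these neighbours overlapped. TIGAR followed with 9.44 ± 0.346 and FDXR with 3.98 ± 0.348, then TP53INP1 with 2.08 ± 0.0883, SPATA18 with 1.68 ± 0.214 and GLS2 with 0.680 ± 0.0319. After 12 h of drug TP53I3 reached 155.6 ± 3.18 FPKM, AEN 28.4 ± 1.40, FDXR 25.1 ± 4.55 and TP53INP1 24.3 ± 1.30, and the libraries of FDXR overlapped with those of AEN and of TP53INP1. In untreated A2780cis cells of 12 h the order was TP53I3 (16.6 ± 0.460 FPKM), AEN (14.0 ± 0.778), TIGAR (10.8 ± 0.638), FDXR (8.12 ± 1.08), SPATA18 (0.671 ± 0.0565), GLS2 (0.609 ± 0.154) and TP53INP1 (0.0995 ± 0.0549), of which SPATA18 and GLS2 overlapped. At 6 h TIGAR (15.7 ± 0.966 FPKM) stood above AEN (12.0 ± 0.692) in these cells.

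After 12 h, all 7 genes rose in A2780 cells and 5 rose in A2780cis cells, where TP53INP1 and AEN were not called. Of all genes tested, 28.6% were called higher and 26.1% lower in A2780, and 31.0% and 28.9% in A2780cis. In A2780 the median of the members was 2.52 and that of all genes 0.02 on the log2 FC scale. In A2780cis these medians were 1.64 and 0.04.

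Both redox enzymes rose in each line. TP53I3 (ENSG00000115129.13, chr2:24077433-24085861, minus strand) had 34.3, 30.2 and 31.4 CPM in untreated and 359, 367 and 352 CPM in treated A2780 cells of 12 h. In A2780cis the levels were 38.9, 37.3 and 39.3 CPM untreated and 234, 234 and 305 CPM treated. In each line every treated library exceeded every untreated one, with a fitted log2 FC of 3.49 (SE 0.11, adjusted p = 2.97e-18) for A2780 and 2.74 (SE 0.11, adjusted p = 2.26e-16) for A2780cis. FDXR (ENSG00000161513.11, chr17:74862497-74873031, minus strand) changed from 15.7, 13.3 and 14.0 CPM to 71.5, 99.1 and 100.4 CPM in A2780, a log2 FC of 2.66 (SE 0.17, adjusted p = 9.3e-13). In A2780cis it changed from 26.0, 28.1 and 33.5 CPM to 75.2, 105 and 93.7 CPM, a log2 FC of 1.64 (SE 0.16, adjusted p = 1.6e-09). The treated libraries of both lines covered overlapping ranges, while the untreated ones of A2780cis were all higher than those of A2780.

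The metabolic enzymes TIGAR and GLS2 moved by different amounts. TIGAR (ENSG00000078237.6, chr12:4307763-4360028, plus strand) went from 92.5, 88.9 and 86.0 CPM to 131, 119.7 and 118 CPM in A2780, log2 FC 0.46 (SE 0.09, adjusted p = 7.6e-05). In A2780cis it went from 109, 100.2 and 97.6 CPM to 135, 116 and 127 CPM, log2 FC 0.30 (SE 0.09, adjusted p = 0.00445). These were the smallest of the increases called at 12 h, although the groups did not overlap. The call in A2780cis was lost without treated replicate 1 (adjusted p = 0.0502) and with no filter on low counts (0.0755). GLS2 (ENSG00000135423.12, chr12:56470944-56488414, minus strand) went from 2.90, 2.66 and 2.88 CPM to 14.7, 15.9 and 17.9 CPM in A2780, log2 FC 2.52 (SE 0.18, adjusted p = 9.66e-12). In A2780cis it went from 3.18, 1.91 and 2.48 CPM to 7.62, 10.4 and 8.41 CPM, log2 FC 1.79 (SE 0.18, adjusted p = 5.21e-09), with the groups of both lines apart. Of the 4141 exon bases of GLS2, 3194 (77.1%) are shared with SPRYD4 on the opposite strand, and the strand setting of the counting is not given in the sources used here, so that reads of the pair cannot be told apart. At 12 h the log2 FC of SPRYD4 was 1.82 (A2780) and 1.98 (A2780cis), both called. FAM228B, which shares 80 exon bases with TP53I3 on the opposite strand, rose by 2.66 and 2.72, and the part of these neighbours in the member values was not tested. TIGAR shares 121 exon bases with the pseudogene ENSG00000213970 on the opposite strand.

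SPATA18 (ENSG00000163071.10, chr4:52051304-52097299, plus strand) rose in both lines from unequal starting levels. In A2780 cells of 12 h it had 9.57, 7.53 and 8.02 CPM untreated and 36.4, 32.9 and 34.7 CPM treated, log2 FC 2.05 (SE 0.14, adjusted p = 8.41e-12). In A2780cis cells it had 3.56, 3.42 and 3.02 CPM untreated and 14.99, 11.8 and 9.72 CPM treated, log2 FC 1.86 (SE 0.16, adjusted p = 3.27e-10). Treated and untreated libraries did not overlap in either line.

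TP53INP1 (ENSG00000164938.13) and AEN (ENSG00000181026.14, chr15:88621337-88632281, plus strand) were called in A2780 and not in A2780cis. TP53INP1 had 11.6, 12.3 and 11.4 CPM in untreated and 145, 135 and 131 CPM in treated A2780 cells of 12 h, log2 FC 3.54 (SE 0.13, adjusted p = 4.74e-17). In A2780cis it had 0.915, 0.337 and 0.432 CPM untreated and 0.572, 0.632 and 0.312 CPM treated, log2 FC -0.18 (SE 0.33, adjusted p = 0.694). Those A2780cis levels rest on 5 to 19 counts per library and overlap between treated and untreated cells, so a change of the size seen in A2780 was not observed while a small change was not detectable at this depth. AEN stood at 74.3, 76.4 and 81.3 CPM in untreated and 161, 170.2 and 177 CPM in treated A2780 cells, log2 FC 1.13 (SE 0.08, adjusted p = 2.56e-11). In A2780cis it stood at 78.5, 84.7 and 87.7 CPM untreated and 80.9, 83.9 and 83.6 CPM treated, log2 FC -0.01 (SE 0.08, adjusted p = 0.905), with overlap.

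**Figure D2:**
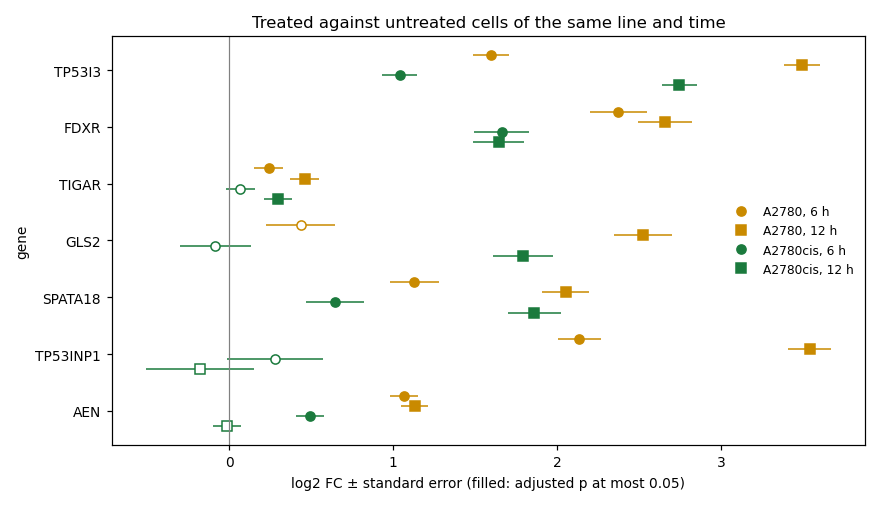
Log2 FC ± SE of treated against untreated cells for the 7 genes, with colours for the line, circles for 6 h and squares for 12 h; filled symbols passed an adjusted p of at most 0.05. All 7 genes are filled for A2780 at 12 h, while TP53INP1 (-0.18) and AEN (-0.01) lie near 0 for A2780cis at 12 h.

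After 6 h, 6 of the 7 genes had risen in A2780 and 4 in A2780cis, and none had fallen. Of all genes tested, 16% were called higher and 13.4% lower in A2780, and 14.4% and 16.3% in A2780cis. The median log2 FC of the members was 1.13 and 0.49, against 0.04 and 0.00 over all genes. FDXR already showed 8.40, 10.3 and 11.6 CPM untreated and 62.1, 49.7 and 44.8 CPM treated in A2780, log2 FC 2.37 (SE 0.18, adjusted p = 2.66e-10). In A2780cis FDXR had 16.1, 11.7 and 14.8 CPM untreated and 38.2, 47.3 and 49.5 CPM treated, log2 FC 1.66 (SE 0.17, adjusted p = 5.14e-08). These levels did not overlap, and the log2 FC at 6 h exceeded that of every other member in both lines. TP53I3 had 24.5, 31.9 and 29.1 CPM untreated and 90.0, 81.8 and 86.0 CPM treated in A2780, log2 FC 1.60 (SE 0.11, adjusted p = 1.07e-10). In A2780cis TP53I3 had 37.8, 33.1 and 39.8 CPM untreated and 69.7, 77.5 and 80.6 CPM treated, log2 FC 1.04 (SE 0.11, adjusted p = 6.19e-08), again without overlap.

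TP53INP1 showed 11.6, 12.3 and 11.6 CPM untreated and 49.8, 48.7 and 57.6 CPM treated in A2780 cells of 6 h, log2 FC 2.14 (SE 0.13, adjusted p = 9.72e-12). In A2780cis it showed 0.832, 1.00 and 0.900 CPM untreated and 1.28, 1.24 and 0.895 CPM treated, log2 FC 0.28 (SE 0.29, adjusted p = 0.569), with overlap. AEN had 65.5, 75.0 and 75.2 CPM untreated and 161, 154 and 137 CPM treated in A2780, log2 FC 1.07 (SE 0.09, adjusted p = 9.79e-10). In A2780cis AEN had 67.8, 76.0 and 70.7 CPM untreated and 96.5, 95.5 and 109 CPM treated, log2 FC 0.49 (SE 0.08, adjusted p = 8.9e-05). AEN was thus higher after 6 h of drug in both lines, while at 12 h the treated A2780cis libraries lay within the range of the untreated ones. SPATA18 had 9.91, 8.89 and 8.73 CPM untreated and 18.8, 19.3 and 22.2 CPM treated in A2780, log2 FC 1.13 (SE 0.15, adjusted p = 3.5e-06). In A2780cis SPATA18 had 3.05, 5.31 and 4.58 CPM untreated and 6.30, 7.16 and 6.74 CPM treated, log2 FC 0.64 (SE 0.18, adjusted p = 0.00731), a call lost without untreated replicate 1 (adjusted p = 0.0694).

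Of the metabolic enzymes at 6 h, TIGAR was called in A2780 and not in A2780cis, and GLS2 in neither line. TIGAR in A2780 cells of 6 h had 114, 121 and 101 CPM untreated and 123, 133 and 141 CPM treated, log2 FC 0.24 (SE 0.09, adjusted p = 0.0403). This call was lost without untreated replicate 1 or 3 or treated replicate 2 or 3 (adjusted p between 0.0892 and 0.194) and in 4 other alternatives. In A2780cis TIGAR had 145, 140.3 and 158 CPM untreated and 168, 151 and 147 CPM treated, log2 FC 0.07 (SE 0.09, adjusted p = 0.596). GLS2 had 3.02, 1.99 and 3.73 CPM untreated and 3.84, 3.61 and 4.37 CPM treated in A2780, log2 FC 0.44 (SE 0.21, adjusted p = 0.126), and of the alternatives run it passed the threshold only without untreated replicate 3 (0.0436). In A2780cis GLS2 had 2.87, 3.11 and 2.94 CPM untreated and 2.31, 2.70 and 3.25 CPM treated, log2 FC -0.08 (SE 0.22, adjusted p = 0.818). In these last 3 comparisons treated and untreated libraries overlapped. SPRYD4, whose exons overlap those of GLS2, had a log2 FC at 6 h of 0.33 in A2780 and 0.66 in A2780cis, both called.

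The growth of the response was tested as the log2 FC of 12 h minus that of 6 h. Of all genes tested, 10.7% were called higher and 13.0% lower in A2780, and 10.3% and 13.6% in A2780cis. In A2780, 4 of the 7 genes grew, namely GLS2 by 2.09 (SE 0.28, adjusted p = 1.13e-05), TP53I3 by 1.90 (SE 0.15, adjusted p = 9.74e-09), TP53INP1 by 1.41 (SE 0.18, adjusted p = 6.26e-06) and SPATA18 by 0.92 (SE 0.21, adjusted p = 0.00216). In A2780cis 3 grew and 1 fell back. GLS2 grew by 1.88 (SE 0.28, adjusted p = 5.24e-05), TP53I3 by 1.70 (SE 0.15, adjusted p = 6.99e-08) and SPATA18 by 1.22 (SE 0.24, adjusted p = 0.000814). AEN changed by -0.51 (SE 0.12, adjusted p = 0.00326). SPRYD4, whose exons overlap those of GLS2, grew by 1.48 in A2780 and 1.32 in A2780cis, both called. Reads of GLS2 and SPRYD4 cannot be told apart here, and the part of SPRYD4 in the growth of GLS2 was not tested. FDXR did not pass the test in either line, with 0.29 (adjusted p = 0.414) in A2780 and -0.02 (adjusted p = 0.988) in A2780cis. Its mean level rose from 6 h to 12 h in treated and in untreated cells. In A2780 it went from 52.2 to 90.3 CPM treated and from 10.1 to 14.3 CPM untreated. In A2780cis it went from 45.0 to 91.3 CPM treated and from 14.2 to 29.2 CPM untreated.

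The response of the lines was compared directly as the log2 FC of A2780cis minus that of A2780. At 12 h, 5 of the 7 genes responded less in A2780cis and none more, where 9.70% of all genes tested were called higher and 14.0% lower. TP53INP1 differed by -3.72 (SE 0.37, adjusted p = 9.7e-08), AEN by -1.14 (SE 0.12, adjusted p = 2.01e-07), FDXR by -1.01 (SE 0.22, adjusted p = 0.00177) and TP53I3 by -0.75 (SE 0.15, adjusted p = 0.000629). GLS2 differed by -0.73 (SE 0.26, adjusted p = 0.0400). SPRYD4, whose exons overlap those of GLS2, differed by 0.17 (adjusted p = 0.424) and was not called. The call of GLS2 was lost in 10 of 19 alternatives, among them those without A2780 untreated replicate 1, 2 or 3, A2780 treated replicate 2 or 3, A2780cis untreated replicate 1 or 3, or A2780cis treated replicate 1 or 3 (adjusted p between 0.0568 and 0.172), and with the compared samples alone (0.0700). SPATA18 (-0.19, adjusted p = 0.569) and TIGAR (-0.16, adjusted p = 0.368) did not pass the test, and TIGAR did so with scaling by library size alone (-0.28, adjusted p = 0.0277).

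At 6 h, 3 of the 7 genes responded less in A2780cis, where 0.692% of all genes tested were called higher and 2.38% lower. TP53INP1 differed by -1.86 (SE 0.34, adjusted p = 0.00209), AEN by -0.58 (SE 0.12, adjusted p = 0.00631) and TP53I3 by -0.56 (SE 0.15, adjusted p = 0.0415). FDXR (-0.71, adjusted p = 0.116), GLS2 (-0.52), SPATA18 (-0.48) and TIGAR (-0.17) did not pass the test. The call of TP53I3 was lost in 11 of 19 alternatives. These included A2780 untreated replicate 1 or 3, any of the A2780 treated replicates, A2780cis untreated replicate 1 or 3, or A2780cis treated replicate 1 or 2 left out (adjusted p between 0.0609 and 0.159). FDXR passed it with no filter on low counts (adjusted p = 0.0196).

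**Figure D3:**
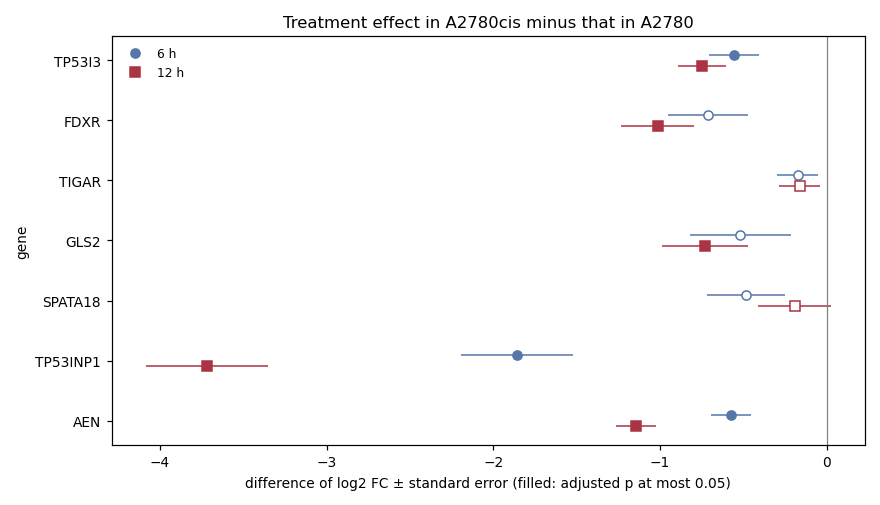
Difference of log2 FC (A2780cis minus A2780) ± SE for the 7 genes, circles for 6 h and squares for 12 h, filled where the adjusted p was at most 0.05. All 14 values lie below 0, with TP53INP1 at -3.72 and AEN at -1.14 at 12 h.

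In untreated cells, 5 of the 7 genes differed between the lines at 6 h and 4 at 12 h. Of all genes tested, 25.0% were called higher and 22.9% lower in A2780cis at 6 h, and 25.4% and 27.5% at 12 h. TP53INP1 was 12.9-fold lower in A2780cis at 6 h and 20.2-fold lower at 12 h (log2 FC -4.33 (SE 0.19, adjusted p = 2.15e-16)). Its A2780cis level rested on 9 to 11 counts per library at 6 h and 6 to 19 at 12 h. SPATA18 was 2.13-fold and 2.50-fold lower (12 h adjusted p = 1.62e-07). In contrast, FDXR was 1.42-fold and 2.04-fold higher (adjusted p = 0.0283 and 6.8e-06). TP53I3 was 1.30-fold and 1.20-fold higher (adjusted p = 0.00630 and 0.0356). TIGAR was 1.32-fold higher at 6 h (adjusted p = 0.000446) and 1.15-fold at 12 h (adjusted p = 0.0571). For each of these called differences the libraries of the lines did not overlap, whereas GLS2 and AEN overlapped and were not called. The number called at 6 h was 3 without A2780 untreated replicate 1.

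The drug-exposed cells of the lines were also compared, a comparison added after the values had been seen. At 12 h 5 of the 7 genes were lower in A2780cis and none higher, where 26.8% of all genes were called higher and 33.8% lower. TP53INP1 was 265-fold lower (log2 FC -8.05 (SE 0.19, adjusted p = 1.23e-21)), SPATA18 2.85-fold, AEN 2.05-fold, GLS2 1.84-fold and TP53I3 1.39-fold lower. The TP53INP1 level of A2780cis rested on 5 to 11 counts per library here, so that the size of its fold is imprecise. FDXR differed by 0.01 (SE 0.15, adjusted p = 0.945), that is, from unequal untreated levels the lines arrived at treated levels that could not be told apart. TIGAR differed by 0.04 (adjusted p = 0.731). At 6 h, where 22.5% of all genes were called higher and 25.7% lower, TIGAR was higher (log2 FC 0.23) and TP53INP1, SPATA18, AEN and GLS2 were lower (-5.55, -1.58, -0.58 and -0.50). The adjusted p was 0.0333 for TIGAR and 0.0478 for GLS2, both near the threshold. The alternatives were not run for the comparison of drug-exposed cells.

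The low TP53INP1 level of untreated A2780cis cells was set beside the tested genes that reach within 500 kb of it, a description also added after the values had been seen. Of these 11 genes, 7 were called higher in A2780cis at both times and none lower at both times, with a log2 FC between 0.12 and 1.5 at 12 h. Over all genes tested, 19.5% were called higher and 20.4% lower at both times. NDUFAF6, an assembly factor of respiratory complex I that shares 225 exon bases with TP53INP1 on the opposite strand, was higher by 0.74 at 6 h and 0.59 at 12 h. CCNE2, which encodes cyclin E2, was higher by 1.14 and 1.44. TP53INP1 was the single gene of the neighbourhood that was called lower at both times, and ranked 899 of 20240 from the lowest log2 FC at 12 h.

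**Figure D4:**
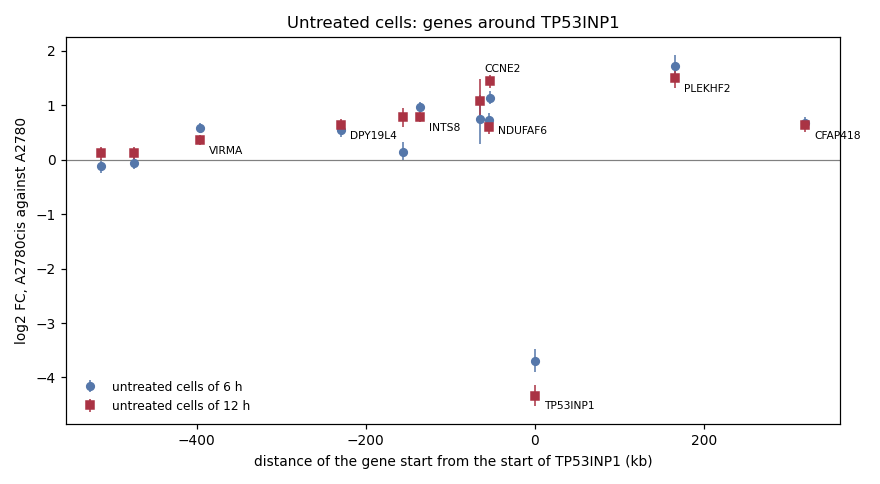
Log2 FC (± SE) of untreated A2780cis against untreated A2780 cells for TP53INP1 and the 11 tested genes around it, by distance of the gene start from that of TP53INP1 in kb, circles for 6 h and squares for 12 h. TP53INP1 lies at -3.69 and -4.33, while the others lie between 0.12 and 1.5 at 12 h.

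Between 6 h and 12 h in untreated cells, 2 of the 7 genes were called in A2780 (1 higher, 1 lower) and 3 in A2780cis (2 higher, 1 lower). Of all genes tested, 16.6% were called higher and 10.3% lower at 12 h than at 6 h in A2780, and 18.0% and 21.9% in A2780cis. FDXR was higher at 12 h in A2780 (0.51 (SE 0.18, adjusted p = 0.0380)) and in A2780cis (1.04 (SE 0.17, adjusted p = 8.63e-05)). TIGAR was lower in A2780 (-0.33 (SE 0.09, adjusted p = 0.00852)) and in A2780cis (-0.53 (SE 0.09, adjusted p = 9e-05)). AEN was higher in A2780cis (0.23 (SE 0.08, adjusted p = 0.0358)). The untreated libraries of 12 h were also deeper. In A2780 the totals were at most 14372622 at 6 h and at least 15253875 at 12 h. In A2780cis they were at most 14109992 and at least 17628534. Time and depth thus cannot be told apart in these comparisons. No member was called in A2780 without untreated replicate 2 of 6 h, and 1 was called without untreated replicate 1 of 6 h or any of the replicates of 12 h.

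Other genes linked to p53 were taken from 4 lists, which were chosen with earlier results of these data known. The study had reported a rise of CDKN1A, GADD45 and other p53 targets in both lines. The counts that follow are therefore descriptions and are not independent of these data. Of 22 tested p53 targets of arrest, apoptosis and repair, 22 rose and none fell in A2780 at 12 h, and 21 rose and none fell in A2780cis, the medians of log2 FC being 1.65 and 1.48, where 28.6% and 31.0% of all genes tested rose. At 6 h 21 and 18 of them rose, against 16% and 14.4% of all genes tested. The most significant were BTG2, an antiproliferative gene (3.86 in A2780 and 3.23 in A2780cis), CDKN1A, the cell cycle inhibitor p21 (2.89 and 4.12), GADD45A, a stress sensor of DNA damage (3.17 and 3.30), SFN, the 14-3-3 sigma protein (6.02 and 4.61), and PLK3, a stress-responsive kinase (3.14 and 3.10). In the comparison of the lines at 12 h, 1 of the 22 responded more and 8 responded less in A2780cis, against 9.70% and 14.0% of all genes tested.

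Of 18 tested genes of metabolism that p53 is known to raise, 13 rose and 2 fell in A2780 at 12 h, and 12 rose and 1 fell in A2780cis, with medians of 0.87 and 0.99. The shares over all genes tested were 28.6% higher and 26.1% lower in A2780, and 31.0% and 28.9% in A2780cis. SAT1, the spermidine acetyltransferase of polyamine breakdown, rose by 3.58 and 2.34, ACER2, a ceramidase, by 3.04 and 2.36, PRKAB1, a subunit of AMP-activated kinase, by 2.07 and 1.12, SESN1, a sestrin that restrains growth signalling, by 2.21 and 2.53, and DDIT4, an mTOR inhibitor, by 0.96 and 1.79. LPIN1, a phosphatidate phosphatase, fell by 0.35 and 0.41 on the log2 scale in the 2 lines. Of 7 tested genes that p53 is known to lower, 6 fell and 1 rose in A2780, and 2 fell and 1 rose in A2780cis, with medians of -0.65 and -0.27, beside the same shares over all genes. SLC2A1, the glucose transporter GLUT1, fell by 1.26 and 1.44 on the log2 scale and ME2, a mitochondrial malic enzyme, by 0.65 and 0.49. SLC2A4, the glucose transporter GLUT4, and SLC7A11, a cystine importer, fell by 1.68 and 0.69 in A2780 and had -0.36 and -0.27 in A2780cis, where neither was called. PDK2, a kinase that restrains pyruvate dehydrogenase, rose by 0.37 and 0.68. ME1, the cytosolic malic enzyme, fell by 0.42 in A2780 and had at most 3 counts in every A2780cis library of 12 h.

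Of 26 tested partners and paralogs of the members, 7 rose and 7 fell in A2780 at 12 h and 11 rose and 7 fell in A2780cis, with medians of -0.04 and 0.03. Over all genes tested 28.6% rose and 26.1% fell in A2780, and 31.0% and 28.9% in A2780cis. Both ferredoxins, which receive electrons from FDXR, were measured. FDX2 rose by 0.81 and 0.52, whereas FDX1 rose by 0.45 in A2780 and fell by 0.53 on the log2 scale in A2780cis, a difference between the lines of -0.99 (SE 0.16, adjusted p = 8.53e-05). FDX1 stood at 19.4 ± 1.10 CPM (SD, n = 3) in untreated A2780 and 137 ± 12.8 CPM in untreated A2780cis cells of 12 h. TP53INP2, the paralog of TP53INP1, rose in both lines by 1.97 and 0.84 and was higher in untreated A2780cis cells by 1.75 at 12 h, opposite to TP53INP1. ISG20, an exonuclease related to AEN, rose by 1.71 and 3.37, a difference between the lines of 1.67 (SE 0.48, adjusted p = 0.0129), on 5 to 15 counts per untreated library of 12 h. CRYZ, a quinone reductase related to TP53I3, fell by 0.92 and 0.68 on the log2 scale. NQO1 and NQO2, further quinone reductases, rose by 0.74 and 0.57 in A2780cis and were not called in A2780 (-0.16 and -0.14). PFKFB3, which makes the glycolytic regulator that TIGAR degrades, fell by 0.33 and 0.85 on the log2 scale and PFKFB2 rose by 0.64 and 0.54. The other partners lay between -0.90 (LONP1 in A2780) and 0.80 (MAP1LC3B in A2780cis).

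**Figure D5:**
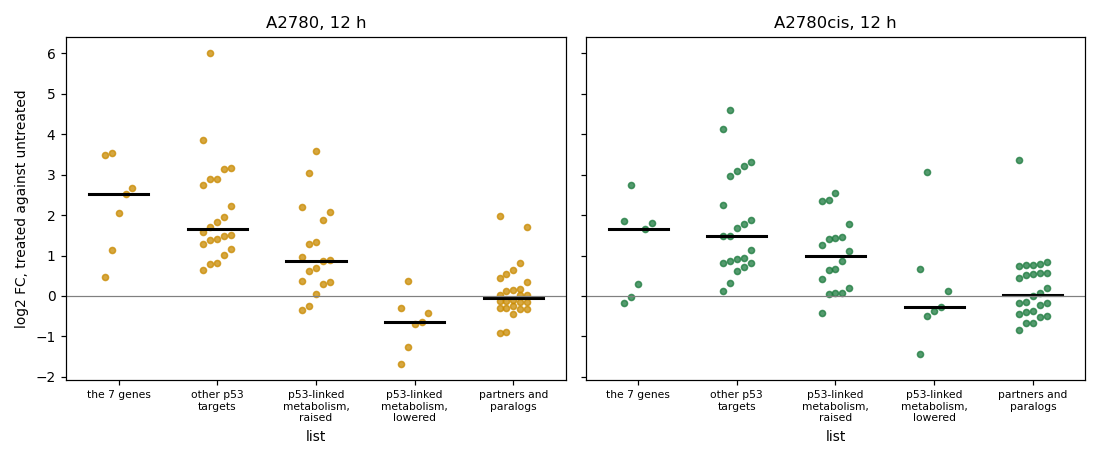
Log2 FC at 12 h of the 7 genes and of the tested genes of the 4 lists in A2780 and A2780cis, points for genes and bars for the median. The median of the 7 genes is 2.52 in A2780 and 1.64 in A2780cis, and that of partners and paralogs -0.04 and 0.03.

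Across the 24 libraries, which share normalization and the 2 lines, the log2 CPM of the members was compared with that of tested genes of mean log2 CPM 2 or more (Pearson's r as a description). For each member, the other members and the genes that share its exon bases were left out. The most alike were RETSAT (0.985) and ABHD4 (0.977) for TP53I3, SLC6A10P (0.989) and ENSG00000198555 (0.983) for FDXR, TM7SF3 (0.976) and CYFIP2 (0.976) for SPATA18, and DCLRE1B (0.978) and UPF3A (0.977) for TP53INP1. For GLS2 they were ENSG00000272631 (0.955) and EID2B (0.952), for TIGAR TP53RK (0.932) and TMEM9B (0.927), and for AEN LIMK2 (0.925) and SRF (0.921). Among the members themselves, TP53I3 and FDXR had an r of 0.944 in the 12 A2780 and 0.909 in the 12 A2780cis libraries. TP53INP1 and SPATA18 had 0.992 in A2780 and -0.0429 in A2780cis, where TP53INP1 stayed near its lowest counts.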

How the data were processed

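RNA-Seq libraries (24, in 8 groups of 3) were made from A2780 and A2780cis cells kept without drug or given 5-FdU-ECyd (1 μM) over 6 h or 12 h. The authors deposited expected counts: reads were trimmed, aligned with STAR 2.5.2b to GRCh38 and counted on gene exons with featureCounts, with fractions for reads of several alignments, and reads over several genes were allowed. The values are not normalized. Reads are single in the labels but paired-end in the methods of the study, and the strand setting is not given in the sources used here, which affects genes with exons on both strands. Totals per library ranged from 11077368 to 21901406, and precision covers counting and replicate error only.

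Rounded counts were fitted with edgeR 4.0.16 (R 4.3.3). Of 63299 genes, 20240 passed filterByExpr (minimum count 10, minimum total 15). TMM normalization and a quasi-likelihood model with 1 coefficient per group (16 residual degrees of freedom, no covariates) were used, with Benjamini-Hochberg adjustment and a threshold of 0.05. SE was taken as the size of the log2 FC over the root of its F value. The model was run on simulated counts with a common dispersion, in which few genes changed, in treated A2780 cells of 12 h alone. Far more genes were called in the data, so that this run does not measure the error rate here. FPKM used exon lengths of GENCODE release 44, and 3 counts were taken as the floor. Promoter windows came from RefSeq (GRCh38.p14). DESeq2 1.42.0 served as an alternative, and matplotlib 3.10.9 with pandas 2.3.3 in Python 3.11.15 drew the figures. The other alternatives were size factors as in DESeq2, library size alone, no filter, unrounded counts, the replicate block, the compared samples alone and each library left out. Named were all members, their exon-overlap neighbours, partners and paralogs, the 4 genes of smallest p per other list and line at 12 h, and the 2 genes most alike to each member. LPIN1 and CCNE2 were named after their values were seen. The members and lists were chosen with earlier results of these data known. SCO2 and SOD2 were not matched and PHLDA3 and PFKFB1 did not pass the filter, so that they were not tested here. Some listed genes are not reported here.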

Additional observations from a re-analysis of the deposited data

Results flagged for a closer look

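The treatment response differed between the lines or between the times, by the test of the difference itself in edgeR's quasi-likelihood model with Benjamini-Hochberg adjustment, for the values that follow on the log2 scale. Between the lines (A2780cis minus A2780), TP53INP1 differed by -3.72 at 12 h and -1.86 at 6 h, AEN by -1.14 and -0.58, and TP53I3 by -0.75 and -0.56. FDXR differed by -1.01 and GLS2 by -0.73 at 12 h. The call of GLS2 at 12 h (adjusted p = 0.0400) was lost in 10 of 19 alternatives. That of TP53I3 at 6 h (adjusted p = 0.0415) was lost in 11 of 19. Between 12 h and 6 h, TP53I3 grew by 1.90 in A2780 and 1.70 in A2780cis, GLS2 by 2.09 and 1.88, and SPATA18 by 0.92 and 1.22. TP53INP1 grew by 1.41 in A2780, and AEN changed by -0.51 in A2780cis. Reads of GLS2 cannot be told apart from those of SPRYD4, which grew by 1.48 in A2780 and 1.32 in A2780cis.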

How the results depend on the processing

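Of the members' treatment responses and differences between the lines, 588 values kept their direction and side of the threshold under the alternatives, 32 lost the call, 3 gained it and 6 turned direction. All 6 belong to genes that were not called: AEN in A2780cis at 12 h turned to 0.093 with library size alone and ranged from -0.065 to 0.014 with a library left out, GLS2 in A2780cis at 6 h turned to 0.0167 with library size alone and ranged from -0.243 to 0.0168, and TP53INP1 in A2780cis at 12 h ranged from -0.43 to 0.38, turning without untreated replicate 1 or treated replicate 3. Library size alone moved the median of all genes at 12 h, in A2780 from 0.02 to 0.24, in A2780cis from 0.04 to 0.15. Among untreated A2780 cells, 1 member changed with time with size factors as in DESeq2 and with no filter, against 2, and 0 to 2 with a library left out. Between untreated lines at 6 h, 3 differed with the compared samples alone, against 5, and 3 to 5 with a library left out. The replicate block left the counts at 7 and 5 (12 h), 6 and 4 (6 h), 5 and 3 (difference between the lines at 12 h and 6 h). The deviations of same-numbered libraries from their group means had no common direction (r from -0.254 to 0.312, the highest for replicate 1 of A2780cis at 12 h). Differently numbered libraries were not compared in this way. The numbers were not taken to pair the libraries. TP53INP1 in A2780cis gave no value with the compared samples alone at 12 h, where it did not pass the filter.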
